A study of Sus scrofa with 6 samples.

Results

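Leptin signals through JAK2 and STAT3, and the RNA of 10 listed genes that restrain this pathway or are switched on by it was examined in pig PBMCs (peripheral blood mononuclear cells, the lymphocytes and monocytes of blood). The list holds feedback inhibitors of the suppressor of cytokine signaling family (SOCS1, SOCS2, SOCS3, SOCS4, SOCS5 and CISH), the tyrosine phosphatases PTPN1 and PTPN2, and the STAT-induced genes PIM1 and BCL3. A gene was included when the symbol column of the deposited table equalled its name, which gave 8 genes out of 11564. SOCS3 and CISH were not matched by symbol and were not analysed here. All 8 matched genes passed the filter on low values, as 10735 genes of the table did, which asked for 1 FPKM or more (fragments per kilobase of transcript, scaled to the library's fragments) in 3 libraries or more.

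The 6 libraries came from PBMCs of Yorkshire pigs aged 6 months. Of these animals, 3 carry the wild type label and 3 the label leptin-overexpressing (here leptin transgenic). The transgene was the pig leptin coding sequence in a pIRES2-AcGFP vector, described in the study's text as driven by a leptin promoter, and the transgenic animals were cloned by nuclear transfer from transfected, drug-selected fetal fibroblasts. The controls were nontransgenic pigs, and the sources used here do not say whether they were cloned, so effects of cloning and of the transgene cannot be told apart. Each library came from a different animal.

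SOCS proteins bind phosphotyrosine on cytokine receptors or JAK kinases and recruit, through the SOCS box, a ubiquitin ligase that marks the bound partner for degradation. Because STAT factors switch on several SOCS genes, the family closes a negative feedback loop on the cytokine signal. PTPN1 and PTPN2 end the same signal by removing phosphate, PTPN1 chiefly from JAK2 and the insulin receptor, and PTPN2 from JAK1, JAK3 and nuclear STATs. PIM1, a serine/threonine kinase that promotes survival, and BCL3, a nuclear IκB protein that binds NF-κB subunits, are STAT-induced genes of lymphoid and myeloid cells.

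LEP was used to check the labels. Its level was 50.0, 0 and 0.118 FPKM in wild type replicates 1, 2 and 3, and 0, 18.3 and 39.3 FPKM in leptin transgenic replicates 1, 2 and 3. The replicate 1 library of each label therefore goes against its label, and the differences of the 8 genes are given by label, with and without these libraries. T cell markers (11 of 11 symbols in the table), B cell markers (6 of 7) and monocyte markers (6 of 8) were all above 0 in every library. Transcripts listed as markers of neutrophils, platelets and red cells were also present, with the highest sums in wild type replicate 1. These sums were 1811 FPKM for neutrophil markers (250.8 to 680.9 FPKM elsewhere), 566.2 FPKM for platelet markers (7 of 8 symbols, 193.1 to 536.5 FPKM elsewhere) and 217.1 FPKM for red cell markers (2 of 8, 21.8 to 102.0 FPKM elsewhere). HBB made up 211.4 FPKM of the red cell sum. S100A12, at 188.1 to 1702 FPKM, made up most of the neutrophil sum in every library. ELANE (0.275 to 1.05 FPKM) and MMP8 did not pass the filter on low values. Whether the neutrophil marker transcripts came from neutrophils was not tested. Not every marker was highest in wild type replicate 1, as MMP9, ITGB3, GP1BB and ALAS2 were highest in leptin transgenic replicate 2 and ELANE in leptin transgenic replicate 1. The libraries labelled leptin transgenic had FPKM sums of 467276 to 503140, above the 444888 to 449653 of those labelled wild type. No read counts are given, so the depth is unknown and precision rests on 3 libraries per label.

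None of the 8 genes passed the test of a difference between the labels. In limma on log2(FPKM + 1), 0 of the 8 had an adjusted p under 0.05, and the adjusted p was 0.993 for every one of them. Over all genes tested, 0.00932% passed that threshold. At an unadjusted p under 0.05 the count was also 0 of 8, against 3.18% of all genes tested. The log2 fold change (leptin transgenic minus wild type) was positive for 3 genes and negative for 5, with a median of -0.15 against 0.059 over all genes tested. Single libraries moved both medians, that of the 8 genes to -0.012 without wild type replicate 2 and -0.069 without leptin transgenic replicate 2, and that of all genes to 0.0066 without wild type replicate 1, 0.022 without leptin transgenic replicate 1, 0.10 without leptin transgenic replicate 2 and 0.11 without wild type replicate 3. Without both replicate 1 libraries the medians were -0.14 and -0.032. With median-of-ratios scaling between the libraries they were -0.20 for the 8 genes and 0.0020 for all genes tested. None of the 95% intervals given below reached a doubling in the leptin transgenic libraries, and those of PIM1 and BCL3 extended past a halving. In bulk RNA, a lower level cannot be told apart from fewer cells that carry the transcript.

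**Figure D1:**
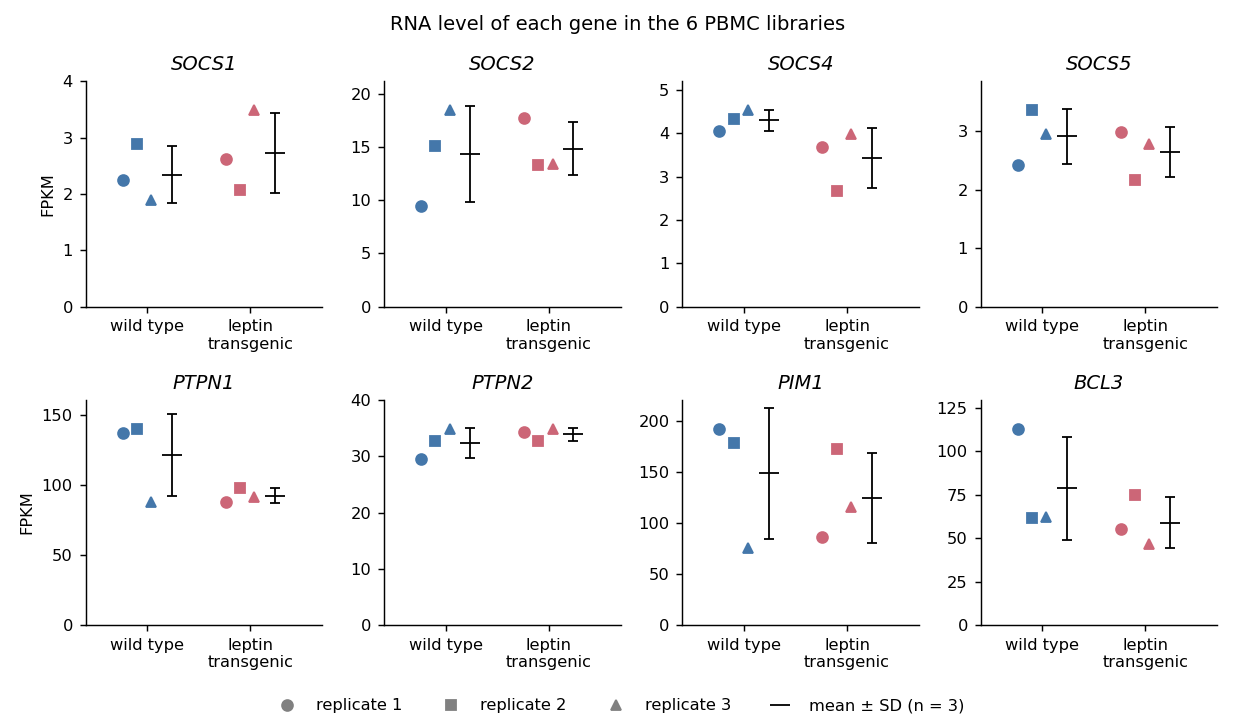
RNA level (FPKM, vertical axes from 0) of each gene in the 3 libraries labelled wild type (blue) and the 3 labelled leptin transgenic (red), with marker shape for the replicate number and black bars for the mean ± SD. Only SOCS4 shows no overlap between the labels, with 4.05 FPKM as the lowest wild type value and 3.98 FPKM as the highest leptin transgenic value.

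Among the 8 genes, SOCS4, which limits epidermal growth factor receptor signaling, was the one whose labels did not overlap. SOCS4 (ENSSSCG00000005053, chromosome 1, 204886219 to 204901845, as the table gives it) was at 4.05, 4.32 and 4.53 FPKM in wild type replicates 1, 2 and 3 and at 3.67, 2.66 and 3.98 FPKM in leptin transgenic replicates 1, 2 and 3. Its leptin transgenic libraries were all lower, with leptin transgenic replicate 2 the lowest and the other two close under the wild type values. The log2 fold change was -0.27 (standard error, SE, 0.16, 95% interval -0.64 to 0.11, limma adjusted p = 0.993). The exact permutation test gave a two-sided p of 0.1, the smallest that 3 libraries against 3 allow. Over all genes tested, 7.63% had no overlap between the labels, against 1 of these 8. Without leptin transgenic replicate 2, the SOCS4 difference was -0.13, and without both replicate 1 libraries it was -0.35. With median-of-ratios scaling between the libraries it was -0.32, with an adjusted p of 0.981 in limma and an unadjusted p below 0.05.

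SOCS1, which blocks JAK kinases directly and is a main brake on interferon-γ signaling, was the lowest of the 8 genes (ENSSSCG00000027855, chromosome 3, 32671706 to 32672538). Its level was 2.24, 2.89 and 1.89 FPKM in wild type replicates 1, 2 and 3 and 2.62, 2.07 and 3.48 FPKM in leptin transgenic replicates 1, 2 and 3. The highest value was leptin transgenic replicate 3 and the lowest wild type replicate 3, and the labels overlapped. The log2 fold change was 0.15 (SE 0.19, 95% interval -0.29 to 0.59, limma adjusted p = 0.993). With single libraries left out it ran from 0.0092 without leptin transgenic replicate 3 and 0.052 without wild type replicate 3 to 0.27 without wild type replicate 2 and 0.28 without leptin transgenic replicate 2. Without both replicate 1 libraries it was 0.15. Interferon-stimulated genes (18 of 22 listed symbols) summed to 2141 to 6097 FPKM in the wild type libraries and 2187 to 4586 FPKM in the leptin transgenic ones, and their order did not follow that of SOCS1 throughout. Wild type replicate 2 had the highest sum and the second highest SOCS1, and wild type replicate 3 the lowest of both. Leptin transgenic replicate 2 had the second highest sum (4586 FPKM) with the second lowest SOCS1, leptin transgenic replicate 1 the second lowest sum (2187 FPKM) with the third highest SOCS1, and leptin transgenic replicate 3, highest in SOCS1, a sum of 3162 FPKM. The part of an interferon response in the SOCS1 level was not tested.

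SOCS2, which limits growth hormone signaling, was the most abundant SOCS gene of the 4 (ENSSSCG00000000910, chromosome 5, 93712448 to 93717854). It was at 9.51, 15.2 and 18.5 FPKM in wild type replicates 1, 2 and 3 and at 17.8, 13.4 and 13.5 FPKM in leptin transgenic replicates 1, 2 and 3. Wild type replicate 1 was the lowest library and lay apart from the other five. At 0.079 on the log2 scale (SE 0.24, 95% interval -0.48 to 0.64, limma adjusted p = 0.993), the difference had no stable direction. It was -0.17 without wild type replicate 1, -0.047 without leptin transgenic replicate 1 and -0.30 without both. With median-of-ratios scaling between the libraries it was 0.019.

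SOCS5, known for restraining interleukin-4 and growth factor receptor signals, varied little (ENSSSCG00000008437, chromosome 3, 99871902 to 99939833). Wild type replicates 1, 2 and 3 were at 2.43, 3.36 and 2.95 FPKM, and leptin transgenic replicates 1, 2 and 3 at 2.98, 2.17 and 2.79 FPKM. The labels overlapped, with both the lowest and the highest values in replicates 2. Its log2 fold change was -0.10 (SE 0.16, 95% interval -0.48 to 0.27, limma adjusted p = 0.993), and -0.26 without both replicate 1 libraries. With single libraries left out it ran from -0.0031 without leptin transgenic replicate 2 and -0.020 without wild type replicate 2 to -0.19 without wild type replicate 1.

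PTPN1, the phosphatase that dephosphorylates JAK2 downstream of the leptin receptor, was high in a pair of wild type libraries (ENSSSCG00000007469, chromosome 17, 58355132 to 58474149). Wild type replicates 1, 2 and 3 were at 136.7, 139.9 and 87.5 FPKM, and leptin transgenic replicates 1, 2 and 3 at 87.8, 98.0 and 91.3 FPKM. Wild type replicate 3 was the lowest of all 6 libraries, just below the lowest leptin transgenic one. The log2 fold change was -0.36 (SE 0.20, 95% interval -0.83 to 0.11, limma adjusted p = 0.993). Without wild type replicate 3 it was -0.58, with an adjusted p of 0.614 in limma and an unadjusted p below 0.05, so whether PTPN1 passes the unadjusted limit depends on that library. Without both replicate 1 libraries it was -0.22.

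PTPN2, which dephosphorylates JAK1, JAK3 and STAT proteins, had the steadiest level of the 8 genes (ENSSSCG00000021738, chromosome 6, 90126977 to 90263311). Its level was 29.5, 32.7 and 34.9 FPKM in wild type replicates 1, 2 and 3 and 34.3, 32.7 and 34.9 FPKM in leptin transgenic replicates 1, 2 and 3. The highest library was 1.18 times the lowest, and the SD of log2(FPKM + 1) over the 6 libraries was smaller in only 3.50% of the genes tested. Its log2 fold change was 0.068 (SE 0.14, 95% interval -0.25 to 0.39, limma adjusted p = 0.993), and -0.0020 without both replicate 1 libraries. It was 0.0052 without wild type replicate 1, 0.12 without wild type replicate 3 and 0.0045 with median-of-ratios scaling between the libraries.

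The STAT-induced genes varied most between animals. PIM1 (ENSSSCG00000001573, chromosome 7, 37691962 to 37697467) was at 191.8, 178.1 and 75.03 FPKM in wild type replicates 1, 2 and 3 and at 85.8, 172.5 and 115.7 FPKM in leptin transgenic replicates 1, 2 and 3. High libraries (wild type replicates 1 and 2 and leptin transgenic replicate 2) and low ones were found under both labels. The log2 fold change was -0.19 (SE 0.39, 95% interval -1.09 to 0.70, limma adjusted p = 0.993). Its direction turned when a replicate 1 library was left out, to 0.048 without the wild type one, 0.044 without the leptin transgenic one and 0.29 without both. For the other single libraries the difference ran from -0.0046 without wild type replicate 2 to -0.45 without leptin transgenic replicate 2 and -0.62 without wild type replicate 3.

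BCL3 (ENSSSCG00000027426, chromosome 6, 47155209 to 47168053) was at 113.0, 61.5 and 62.0 FPKM in wild type replicates 1, 2 and 3 and at 55.4, 75.02 and 46.4 FPKM in leptin transgenic replicates 1, 2 and 3. Wild type replicate 1 stood above the other five libraries. The log2 fold change was -0.38 (SE 0.28, 95% interval -1.02 to 0.26, limma adjusted p = 0.993), and it was -0.064 without both replicate 1 libraries. With single libraries left out it ran from -0.094 without wild type replicate 1 and -0.23 without leptin transgenic replicate 3 to -0.57 without leptin transgenic replicate 2. By exact permutation test, the two-sided p was 0.4 for BCL3 and PTPN1, 0.6 for SOCS1 and SOCS5, 0.7 for PTPN2, 0.8 for PIM1 and 0.9 for SOCS2.

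**Figure D2:**
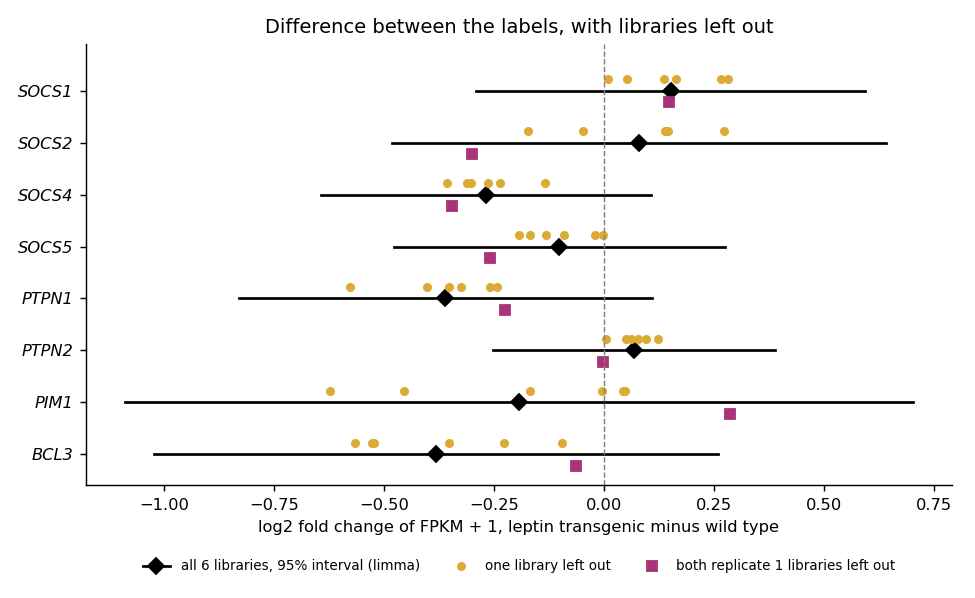
Log2 fold change of FPKM + 1 between the labels (horizontal axis, leptin transgenic minus wild type) for each gene, as black diamonds with 95% intervals from limma over all 6 libraries, yellow points for each fit with one library left out, and purple squares for the fit without both replicate 1 libraries. All 8 intervals include 0, and the purple squares of SOCS2 (-0.30), PIM1 (0.29) and, barely, PTPN2 (-0.0020) lie on the other side of 0 from the diamonds.

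Because FPKM is scaled by transcript length, levels can be set beside each other. Over the 6 libraries the means were 136.5 ± 50.7 FPKM for PIM1, 106.9 ± 24.6 for PTPN1, 68.9 ± 23.5 for BCL3, 33.1 ± 2.04 for PTPN2, 14.6 ± 3.29 for SOCS2, 3.87 ± 0.662 for SOCS4, 2.78 ± 0.424 for SOCS5 and 2.53 ± 0.591 for SOCS1 (SD, n = 6). The phosphatases and STAT-induced genes were thus above every SOCS gene in all 6 libraries. PIM1 exceeded its neighbour PTPN1 in 4 of 6 libraries and SOCS5 exceeded SOCS1 in 5 of 6, and neither pair was separated beyond the spread. PTPN1 exceeded BCL3, and SOCS4 exceeded SOCS5, in 6 of 6 libraries, but their ranges over the libraries overlapped. The ranges of the other neighbours in this order did not overlap. By mean FPKM, PIM1 was above 95.1% of the genes tested and SOCS1 above 16.4%. The annotated SOCS1 locus spans 833 bp, the shortest of the 8, and its FPKM rests on that gene model.

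The spread between animals was widest for PIM1 and BCL3. The highest library was 2.56 times the lowest for PIM1 and 2.43 times for BCL3, and the SD of log2(FPKM + 1) exceeded that of 95.5% and 90.4% of the genes tested. The corresponding ratio was 1.94 for SOCS2, 1.85 for SOCS1, 1.70 for SOCS4, 1.60 for PTPN1 and 1.55 for SOCS5. PIM1 and PTPN1 varied together over the 6 libraries (Pearson r = 0.82), as did SOCS2 and PTPN2 (r = 0.85) and SOCS4 and SOCS5 (r = 0.75). PTPN2 varied against BCL3 (r = -0.93), PIM1 (r = -0.79) and PTPN1 (r = -0.80), and SOCS2 against PIM1 (r = -0.79). The pairs were named for the size of r on log2(FPKM + 1). In each library the genes share 1 cell mixture and 1 scaling, and the values are given over n = 6 without a test.

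Values were then set beside LEP RNA in the same library. LEP fell into 3 libraries at 18.3 FPKM or more and 3 at 0.118 FPKM or less, so no correlation was computed, and the libraries were not regrouped for any test. SOCS2 was at 9.51, 13.5 and 13.4 FPKM in the libraries with 50.0, 39.3 and 18.3 FPKM of LEP, and at 15.2 to 18.5 FPKM in those at or near 0. SOCS5 was at 2.43, 2.79 and 2.17 FPKM in the former and at 2.95 to 3.36 FPKM in the latter. Both genes therefore had their lowest 3 values where LEP was highest, a pattern that 9.05% of all genes tested also had. Summed myeloid markers split the libraries the same way, but not every marker did. Summed monocyte markers were at 834.7, 586.3 and 847.8 FPKM in the libraries with 50.0, 39.3 and 18.3 FPKM of LEP and at 366.8 to 499.5 FPKM in the other libraries, and summed neutrophil markers at 1811, 375.8 and 680.9 FPKM and at 250.8 to 339.1 FPKM. Of 7 monocyte rows, only CD14 and LYZ, which make up most of the sum, were higher in all 3 libraries with LEP RNA, while 4 overlapped (CSF1R, CD163, VCAN and one CD68 row) and the other CD68 row, at 2.98 to 7.49 FPKM, was lower in all 3. CSF1R, VCAN and the first CD68 row were highest in a library at 0 FPKM of LEP. Of 7 neutrophil rows, 4 (S100A12, MMP9, LTF and PGLYRP1) were higher in all 3 and the other 3 (ELANE, MMP8 and LCN2) overlapped. The part of these cells in the SOCS2 and SOCS5 levels was not tested. For the other 6 genes the ranges overlapped. PIM1 ranged from 115.7 to 191.8 FPKM in the libraries with LEP RNA and from 75.03 to 178.1 FPKM in the others, and BCL3 from 46.4 to 113.0 FPKM and from 55.4 to 62.0 FPKM. SOCS1 ranged from 2.07 to 3.48 FPKM and from 1.89 to 2.89 FPKM in the same order.

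**Figure D3:**
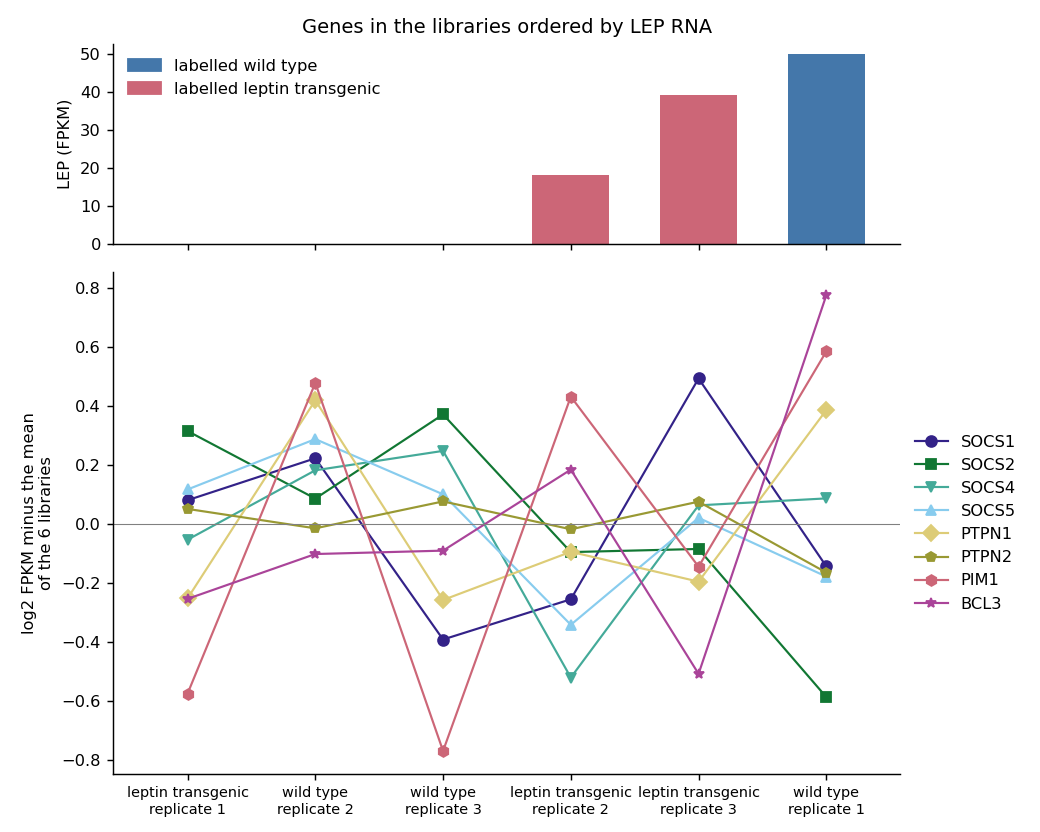
LEP level in FPKM (upper bars, blue for libraries labelled wild type and red for those labelled leptin transgenic) and, below, each gene's log2 FPKM minus its mean over the 6 libraries, in the libraries from lowest to highest LEP. Leptin transgenic replicate 1 and wild type replicate 2 are tied at 0, and SOCS2 and SOCS5 are lowest in the 3 libraries on the right, which hold 18.3, 39.3 and 50.0 FPKM of LEP.

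Levels of BCL3, PIM1 and PTPN1 were set beside summed markers of myeloid cells and interferon-stimulated genes. Neutrophil markers (7 of 12 listed symbols, all above 0 in every library) summed to 257.7 to 1811 FPKM under the wild type label and 250.8 to 680.9 FPKM under the leptin transgenic label. Among them, ELANE and MMP8 did not pass the filter on low values, and S100A12 made up most of each sum. Wild type replicate 1, the library highest in BCL3, held the highest sum, of which S100A12 made up 1702 FPKM. Leptin transgenic replicate 2 was next in both, whereas leptin transgenic replicate 3, with the third highest sum (375.8 FPKM), had the lowest BCL3 of all (46.4 FPKM). Monocyte markers (6 of 8, all above 0) summed to 366.8 to 834.7 FPKM under the wild type label and 499.5 to 847.8 FPKM under the leptin transgenic label. PIM1 was high in both libraries at the top of that range, and also in wild type replicate 2, where the monocyte sum was 435.3 FPKM. Interferon-stimulated genes summed to 6097, 4586 and 4237 FPKM in wild type replicate 2, leptin transgenic replicate 2 and wild type replicate 1, the 3 libraries highest in both PIM1 and PTPN1, and to 2141 to 3162 FPKM in the other libraries. PTPN1 did not follow the sum among these 3. It was at 98.0 FPKM in leptin transgenic replicate 2, near the 87.5 to 91.3 FPKM of the lower libraries, and at 136.7 FPKM in wild type replicate 1. This split was seen after the values were known, and the share of all genes that have it was not computed. Of the 18 interferon-stimulated genes, 4 had a positive and 14 a negative log2 fold change between the labels, with a median of -0.20, and 0 passed the test. T cell markers summed to 963.7 to 1272 FPKM under the wild type label and 881.1 to 1451 FPKM under the leptin transgenic label. All 11 had a positive log2 fold change and 0 passed the test, beside 63.1% of all genes tested with a positive value. The part of cell composition or of an interferon response in the levels of BCL3, PIM1, PTPN1 and the SOCS genes was not tested.

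**Figure D4:**
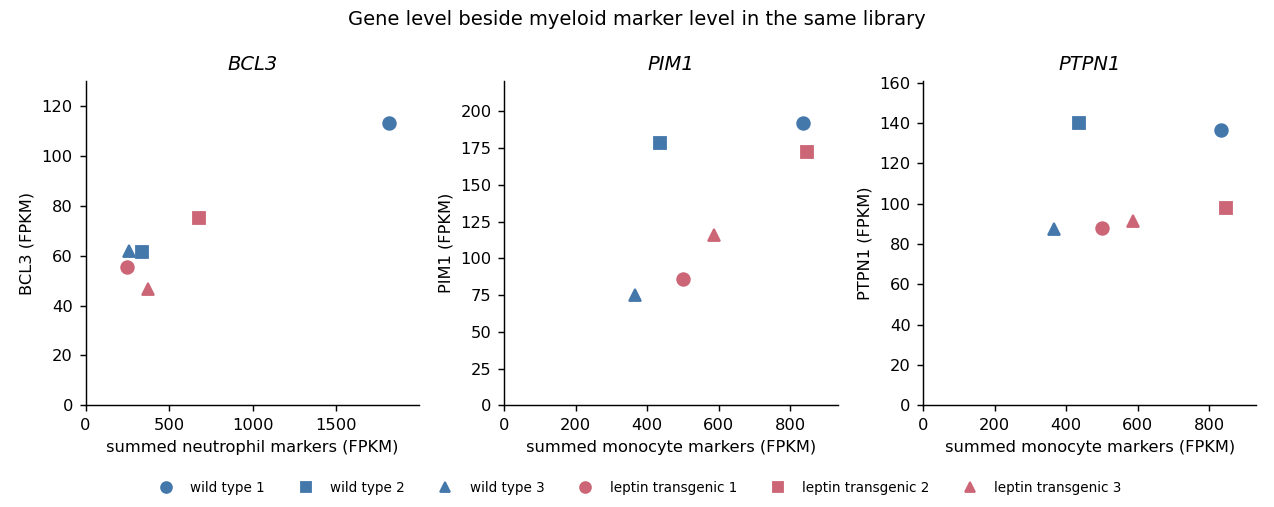
FPKM of BCL3 against summed neutrophil markers, and of PIM1 and PTPN1 against summed monocyte markers, with 1 point per library (blue for wild type, red for leptin transgenic, shape for the replicate number) and all axes from 0. Wild type replicate 1 is alone at 1811 FPKM of neutrophil markers and 113.0 FPKM of BCL3, while wild type replicate 2 has high PIM1 (178.1 FPKM) and PTPN1 (139.9 FPKM) at a monocyte sum of 435.3 FPKM.

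The genes whose pattern over the 6 libraries was most like each of the 8 were taken by Pearson r of log2(FPKM + 1), among named genes tested with a mean of at least 5 FPKM. For PIM1 they were NFIL3 (r = 0.992), a transcription factor, EMILIN2 (r = 0.983) and ANTXR2 (r = 0.982). For PTPN1 the leading gene was IL1R2 (r = 0.996), the decoy receptor for interleukin-1, at 23.2, 26.6 and 1.63 FPKM in the wild type libraries and 2.51, 3.82 and 2.89 FPKM in the leptin transgenic ones, followed by TMEM127 (r = 0.991) and GYG1 (r = 0.991). Being picked for its likeness to PTPN1, IL1R2 was high in the same pair of wild type libraries. For BCL3 the genes were STARD7 (r = 0.999), DNM2 (r = 0.979) and SH3BP5 (r = 0.978). SOCS1 was closest to TNFSF9 (r = 0.978), a T cell costimulatory ligand, RPL9 (r = 0.919) and NIPSNAP3A (r = 0.914), SOCS2 to KDM5B (r = 0.996), TMEM8A (r = 0.993) and OTUB1 (r = 0.991), and SOCS4 to ZNF148 (r = 0.985), SEPT11 (r = 0.9753) and IKZF3 (r = 0.974). SOCS5 was closest to WBP11 (r = 0.985), DOCK9 (r = 0.984) and CAMK2D (r = 0.983), and PTPN2 to FADS1 (r = 0.999), MTX2 (r = 0.997) and GORASP2 (r = 0.996). Because the genes were picked for the highest r among all that qualified, high values of r are built into the choice. The values are a description over n = 6 libraries, with no test.

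In the annotation columns of the table, SOCS2, SOCS4, SOCS5 and PIM1 carried the JAK/STAT pathway identifier of KEGG, which 58 genes of the table carry. SOCS2, SOCS4 and PTPN1 carried that of insulin signaling, which 61 genes carry. All 4 SOCS genes shared the GO process of negative regulation of the JAK-STAT cascade, carried by 9 genes, and protein ubiquitination, carried by 26. BCL3 and PTPN2 were listed with no KEGG pathway and no GO process.

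Related genes were counted from lists of the surrounding pathway. Of the JAK and STAT rows, 10 were tested, 3 higher and 7 lower in the leptin transgenic libraries, and 0 had an unadjusted p under 0.05. These rows cover 8 symbols, as STAT5A has more than 1 row. STAT3, singled out after the values were seen because it acts on these targets, was at 99.5, 90.4 and 72.3 FPKM in the wild type libraries and 66.0, 77.4 and 69.0 FPKM in the leptin transgenic ones, which overlapped. Of 16 cytokine receptor rows, 6 were higher and 10 lower, and of 7 cytokines tested, 5 were higher and 2 lower, again with 0 past the unadjusted p in each list. The higher cytokines include LEP itself (log2 fold change 1.26, SE 1.75), the gene used to check the labels. Of 20 cytokines listed, 9 were in the table. The SOCS-box ligase partners (5 tested, 4 higher, 1 lower) and the other tyrosine phosphatases (10 tested, 4 higher, 6 lower) also had 0 past it.

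In each of 3 further lists, 1 gene had an unadjusted p under 0.05 in limma, and none had an adjusted p under it. Among 10 other inhibitors of JAK/STAT signaling (4 higher, 6 lower), this was CBL, a ubiquitin ligase for activated kinases and receptors, at 15.3, 11.7 and 10.2 FPKM in the wild type libraries and 7.60, 7.80 and 10.1 FPKM in the leptin transgenic ones. Its groups did not overlap, and the difference was -0.49 on the log2 scale (SE 0.19, adjusted p = 0.993, limma). Among 25 other known STAT3 targets (12 higher, 13 lower) it was ZFP36, an RNA-binding protein that destabilizes cytokine mRNAs. ZFP36 was at 133, 165 and 118 FPKM in the wild type libraries and 170.0, 205 and 232 FPKM in the leptin transgenic ones, with no overlap and a difference of 0.54 on the log2 scale (SE 0.19, adjusted p = 0.993, limma). Among 10 NF-κB subunits and feedback inhibitors (6 higher, 4 lower), it was NFKBIA, which holds NF-κB in the cytoplasm. NFKBIA was at 114, 72.1 and 93.4 FPKM in the wild type libraries and 145, 212 and 112 FPKM in the leptin transgenic ones, which overlapped, and it differed by 0.72 on the log2 scale (SE 0.26, adjusted p = 0.993, limma). Over all 8 lists, 3 of 90 different rows tested (3.33%) passed the unadjusted limit, against 3.18% of all genes tested. CBL and ZFP36 were named for passing it, so their lack of overlap is no further evidence. Labels did not overlap in 7.63% of all genes tested. Each of the 3 calls depended on single libraries and on other choices. CBL no longer passed the limit without wild type replicate 1 (log2 fold change -0.34) or 2 (-0.52), or without leptin transgenic replicate 1 (-0.43) or 2 (-0.44). ZFP36 did not pass it without wild type replicate 3 (0.43) or leptin transgenic replicate 3 (0.44). NFKBIA did not without wild type replicate 2 (0.54) or leptin transgenic replicate 2 (0.47). Without both replicate 1 libraries, the differences were -0.28 for CBL, 0.64 for ZFP36 and 0.90 for NFKBIA, and CBL was no longer past the limit. The CBL call was also lost with the replicate number as a block, and those of ZFP36 (0.48) and NFKBIA (0.65) with median-of-ratios scaling.

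The other SOCS genes of the table, SOCS6 and SOCS7, were named after their values were seen. SOCS6 was at 15.5, 12.4 and 11.6 FPKM in the wild type libraries and 9.83, 11.1 and 10.9 FPKM in the leptin transgenic ones, with no overlap. Such a lack of overlap was found in 7.63% of all genes tested. SOCS7 was at 4.02, 3.70 and 3.68 FPKM and 3.55, 2.40 and 4.48 FPKM, with overlap. The log2 fold changes were -0.28 (SE 0.16) and -0.13 (SE 0.19), each with an adjusted p of 0.993 in limma.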

How the data were processed

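PBMC RNA of 6 pigs was measured, 3 per label, and columns were matched to samples by the animal code in the labels. The authors deposited 1 FPKM value per gene and library. The study's methods name Bowtie alignment to the Ensembl version 75 transcriptome and RSEM, whereas the submitters' processing notes name STAR 2.5, Cuffnorm and DESeq 1.22.1, and the table does not settle which made the values. The table names no genome build. Strand-specific libraries were prepared. The authors also deposited a log2 fold change, a p-value and an FDR of their own, which were not used. No per-sample column was unmatched (0).

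FPKM values were transformed to log2(FPKM + 1). The labels were compared in limma 3.58.1 under R 4.3.3 with a linear model of the label alone and moderated variances, without a trend or robust moderation. This fit covered the 10735 genes that reached 1 FPKM in 3 or more libraries, and its two-sided p-values were adjusted over all of them by the Benjamini-Hochberg method. The fold changes understate those of genes with low values. The study's methods name maSigPro for the comparison and the submitters' notes name DESeq, and neither was used here. An exact permutation test was added for each member. The fit was first tested on simulated data.

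The members and lists were chosen with earlier results of these data known. Named genes are the members, LEP, list genes with an unadjusted p under 0.05, and the 3 genes most like each member. STAT3, SOCS6, SOCS7 and the single monocyte, neutrophil, B cell, platelet and red cell markers named fall outside this rule and were chosen after their values were seen. Alternatives were the pseudocount, the filter, scaling between libraries, moderation, the replicate number as a block, and libraries left out. A replicate number is not shared by one animal across labels, so the numbers do not pair the animals. The correlations of same-numbered libraries after subtracting each label's mean were -0.284, 0.135 and -0.00728. Those of unlike-numbered libraries ran from -0.259 to 0.338. With 3 libraries per label, these values cannot show whether same-numbered libraries share a batch. No sequences are shown.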

Additional observations from a re-analysis of the deposited data

How the results depend on the processing

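Of 96 values of the 8 genes under 12 alternatives, 89 kept their direction and none (0) passed an adjusted p of 0.05 in limma, while 2 passed the unadjusted limit. Reversed values came only from leaving libraries out, and the cause was not tested. Without both replicate 1 libraries, the log2 fold change was -0.30 for SOCS2, 0.29 for PIM1 and -0.0020 for PTPN2. With one library left out, it ranged from -0.17 to 0.27 for SOCS2 and from -0.62 to 0.048 for PIM1.

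The number of the 8 genes past the unadjusted p was 1 with median-of-ratios scaling (SOCS4) and ranged from 0 to 1 with one library left out (PTPN1, without wild type replicate 3). Over all genes tested, the number with an adjusted p under 0.05 was 2 with the replicate block and 0 without both replicate 1 libraries, and ranged from 0 to 3 with one library left out. At the unadjusted p, higher genes numbered 104 without both replicate 1 libraries and ranged from 135 to 608, and lower genes numbered 250 with median-of-ratios scaling and ranged from 95 to 238. Among all genes tested, higher genes made up 62.5% of the calls at the unadjusted p on the values as deposited and 40.0% after median-of-ratios scaling. In the related lists, the counts past the unadjusted p were 0 with median-of-ratios scaling for the other STAT3 targets and the NF-κB list, 0 for the other inhibitors with the replicate block and without both replicate 1 libraries, and 1 for the cytokines without both. With one library left out they ranged from 0 to 1 for the JAK and STAT genes, receptors, cytokines, other inhibitors and phosphatases, from 0 to 2 for the NF-κB list and from 0 to 4 for the other STAT3 targets, with 4 without wild type replicate 3. The replicate block changed no call among the 8 genes, although the replicate number does not pair the animals. Depth is unknown, and the precision of SOCS1, SOCS4 and SOCS5, at 1.89 to 4.53 FPKM, cannot be separated from it.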
